A study of Homo sapiens with 6 samples.

Results

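The genes described here are 9 genes of pericellular proteolysis, taken by symbol from the 23152 genes of the deposited tables: the matrix metalloproteinases MMP1, MMP2, MMP9 and MMP14, the tissue inhibitors TIMP1 and TIMP2, the plasminogen activators PLAU and PLAT, and the urokinase receptor PLAUR. The rule takes them by name and uses no threshold on measured values, though earlier results of these data were known when they were chosen. RNA was sequenced from T24, an established human bladder cancer cell line, in 3 samples with an empty vector and 3 samples overexpressing RNF112 (oeRNF112), an E3 ubiquitin ligase. All 6 samples were grown in the same medium with fetal bovine serum. The study's methods describe overexpression from a transfected plasmid, whereas the treatment note in the labels speaks of siRNA transfection with a lipid reagent. A single cell line was used, and the labels do not say whether replicates were separate cultures, so the p-values below measure only the spread between these samples.

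Total counts ranged from 40029547 to 41259569 per sample, and a count of 0 allows up to 3 reads, or a CPM (the count scaled to a common library total) of 0.0727 to 0.0749, counting error only. RNF112 had 27, 19 and 24 counts in vector and 29753, 36963 and 31712 counts in oeRNF112. The keratins KRT7, KRT8 and KRT18 were abundant in every sample, at 31265 counts or more, while KRT19 had 5405 to 7274 and EPCAM 66 to 183. KRT7 and KRT18 fell (log2 fold changes -0.48 and -0.51, edgeR adjusted p = 0.0226 and 0.0130), and EPCAM rose (0.84, adjusted p = 0.0208). KRT8 and KRT19 were at -0.33 and -0.17 (edgeR adjusted p = 0.0759 and 0.381). Of the 7 measured markers of urothelial differentiation, UPK2, UPK3A and KRT20 had at most 7 counts, UPK1A 4 to 20, GATA3 117 to 173, PPARG 2056 to 2485 and FOXA1 571 to 1644. FOXA1 fell (log2 fold change -1.08, edgeR adjusted p = 0.00132), and the 7 summed to 88.8 to 97.5 CPM in vector and 79.9 to 86.5 in oeRNF112. Between the groups, 2620 of 14467 tested genes passed edgeR's quasi-likelihood test at a Benjamini-Hochberg adjusted p under 0.05, which is 18.1% of those tested, with 1442 higher (9.97%) and 1178 lower (8.14%) in oeRNF112. For 36.8% of the tested genes, normalized levels were fully separated between vector and oeRNF112. Summed epithelial markers were at 3485 to 4351 CPM in vector and 2841 to 3296 in oeRNF112, fibroblast markers at 9.40 to 12.0 and 13.1 to 13.4 (COL1A2, DCN and LUM had at most 3 counts in a sample, COL3A1 6 to 17, PDGFRB 64 to 126 and COL1A1 262 to 421), and endothelial markers at 0.520 or less in every sample. The fibroblast marker PDGFRA had 1, 3 and 8 counts in vector and 19, 29 and 19 in oeRNF112 (log2 fold change 2.36, edgeR adjusted p = 0.0194). PDGFRA passed the filter on low counts only through its oeRNF112 samples, so its call is not independent of that filter. The part of these markers in the results below was not tested.

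Tumor cells and their neighbors degrade the surrounding matrix with 2 linked protease systems. Urokinase (PLAU), bound to its receptor PLAUR, and tissue-type plasminogen activator (PLAT) cleave plasminogen to plasmin, and serine protease inhibitors (serpins) block the activators. Plasmin can in turn activate secreted pro-metalloproteinases, membrane-bound MMP14 activates pro-MMP2 with the help of TIMP2, and TIMPs inhibit the active enzymes. Activity is largely set after translation, so mRNA levels do not give it.

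The 4 genes that passed the test lay in both directions. In oeRNF112 the receptor PLAUR and the collagenase MMP1 rose, and both activators, PLAU and PLAT, fell. Of the 8 genes that had enough counts to be tested, 4 passed at the adjusted p under 0.05 of edgeR's test, against 18.1% of all tested genes, and 5 of 8 were fully separated between the groups, against 36.8%. The median log2 fold change of the 8 was 0.23, against 0.00267 over all tested genes. Summed over all 9 genes, they took 0.182% to 0.195% of the counts in vector and 0.191% to 0.198% in oeRNF112.

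The sequences upstream of PLAUR and PLAU are shown because the receptor and its ligand moved in opposite directions, and that of SERPINB2, which encodes the plasminogen activator inhibitor PAI-2, because it passed the test with a log2 fold change of 2.68. Each is the 250 bases before a RefSeq start site (assembly GRCh38.p14), written 5′ to 3′ on the strand of the gene. Capitals mark matches to the AP-1 motif TGANTCA, a palindrome that reads alike on both strands.
PLAUR, chr19:43670170-43670419, minus strand: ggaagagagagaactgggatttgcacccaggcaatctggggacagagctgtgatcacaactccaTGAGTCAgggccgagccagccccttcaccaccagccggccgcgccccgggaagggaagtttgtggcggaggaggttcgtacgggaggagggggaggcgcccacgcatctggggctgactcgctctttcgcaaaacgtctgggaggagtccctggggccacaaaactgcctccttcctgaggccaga
PLAU, chr10:73910882-73911131, plus strand: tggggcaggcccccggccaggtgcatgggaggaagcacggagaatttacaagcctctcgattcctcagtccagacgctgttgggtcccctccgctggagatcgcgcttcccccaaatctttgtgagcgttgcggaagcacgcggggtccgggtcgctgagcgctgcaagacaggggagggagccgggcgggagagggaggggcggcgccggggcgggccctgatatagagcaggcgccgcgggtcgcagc
SERPINB2, chr18:63887455-63887704, plus strand: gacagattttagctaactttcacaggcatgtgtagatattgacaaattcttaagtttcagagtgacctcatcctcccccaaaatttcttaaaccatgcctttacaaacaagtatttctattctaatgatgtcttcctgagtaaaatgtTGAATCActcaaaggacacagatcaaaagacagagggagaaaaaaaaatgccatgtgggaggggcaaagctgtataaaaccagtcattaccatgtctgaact
The PLAUR window held 1 AP-1 match, from -186 to -180 relative to the start site, and the SERPINB2 window held 1, from -102 to -96. The printed PLAU window held no AP-1 match but 3 GC boxes (CCGCCC, searched on both strands) between -66 and -35, and a window at a further PLAU start site held neither motif. Windows of 250 bases before and 50 after the start were searched for 14 genes, namely PLAU, PLAUR, MMP14, TIMP1 and 10 of the related genes named below. The 14 genes had 18 windows, since HPSE had 3 and PLAU and SPINT1 had 2 each. An AP-1 match was present in 4 of the 18 windows, 1 each of PLAUR, SERPINB2, LCN2 and SPINT1, against 7.71% of all 35116 RefSeq windows. The E-box CACGTG was present in 1 of the 18, a window of the heparanase gene HPSE, against 7.26% of all. The GC box was present in 12 of the 18 windows (45% of all), the PEA3 motif AGGAAG in 11 (33.6% of all) and TATAAA in 2, of HPSE and SERPINB2 (11.5% of all), with both strands searched. These are matches of letters in a short window, not measured binding sites. Windows of MMP1, MMP2, MMP9, TIMP2 and PLAT were not analysed here.

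Compared per length, as RPKM (reads scaled by gene length and library total), the 9 genes spanned several orders of magnitude. PLAU was the most abundant in vector, at 269 ± 15.5 (SD, n = 3). TIMP2 and TIMP1 followed at 106 ± 6.55 and 103 ± 13.3, with overlapping samples. MMP14 and PLAT, at 71.9 ± 3.17 and 67.6 ± 2.20, overlapped as well, and PLAUR stood below them at 24.5 ± 2.88. The T24 cells thus held mRNA for both activators, the receptor, the membrane protease and both inhibitors at a mean of 24.5 RPKM or more. The secreted metalloproteinases were far lower. In vector, MMP1 was at 0.688 ± 0.500, MMP9 at 0.211 ± 0.0746 and MMP2 at 0.00803 ± 0.00927. In oeRNF112, the order was PLAU (227 ± 6.39), TIMP1 (133 ± 15.1), TIMP2 (121 ± 6.76), MMP14 (86.5 ± 6.12), PLAT (50.9 ± 1.65), PLAUR (43.1 ± 5.23), MMP1 (1.86 ± 0.141), MMP9 (1.05 ± 1.52) and MMP2 (0.0162 ± 0.00932). Here TIMP1 and TIMP2 overlapped, as did MMP1 and MMP9, and every other pair of neighbors was apart.

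PLAU encodes urokinase, the activator that works at the cell surface. Its normalized level, in CPM with TMM factors, was 777, 711 and 824 in vector and 605, 607 and 620 in oeRNF112. Each oeRNF112 sample was below each vector sample. PLAU fell by 20.8% (log2 fold change -0.34, standard error 0.0882, adjusted p = 0.0275 by edgeR's quasi-likelihood test). This was the least stable of the falls: the adjusted p was 0.0627 with library totals in place of TMM factors, and it stayed under 0.05 in 1 of the 6 fits that each left out a sample, the fit without vector replicate 2 (log2 fold change -0.39). Without vector replicates 1 or 3 the edgeR adjusted p was 0.118 and 0.0806, and without oeRNF112 replicates 1, 2 or 3 it was 0.116, 0.0592 and 0.0640.

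PLAU lies on chromosome 10 (73909177 to 73917497, plus strand, GRCh38 coordinates of GENCODE 29), where C10orf55 on the opposite strand shares 916 exonic bases with it. C10orf55 had 213, 180 and 182 counts in vector and 114, 119 and 112 in oeRNF112, and fell as well (log2 fold change -0.82, standard error 0.153, edgeR adjusted p = 0.00656). These counts amounted to 0.427% to 0.693% of those of PLAU. The library kit keeps the strand, but the strand setting of the counting is not given in the sources used here, so reads of PLAU and C10orf55 in the shared bases cannot be told apart.

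PLAT encodes the tissue-type activator, best known for dissolving fibrin clots. It was at 221, 202 and 220 normalized CPM in vector and at 150, 149 and 153 in oeRNF112. The spread within each group was small beside the gap between them. PLAT fell by 29.5% (log2 fold change -0.51, standard error 0.0800, edgeR adjusted p = 0.00291). The gene lies on chromosome 8, from 42175233 to 42207724 on the minus strand. Its fall passed the threshold under all 15 alternatives tried, with log2 fold changes from -0.55 to -0.40.

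PLAUR encodes the glycolipid-anchored receptor that holds urokinase at the cell surface. It was at 82.0, 68.0 and 88.9 normalized CPM in vector and at 128, 151 and 115 in oeRNF112. The lowest oeRNF112 sample was above the highest vector sample. PLAUR rose by 65.1%, or 1.65-fold (log2 fold change 0.72, standard error 0.128, edgeR adjusted p = 0.00483). It passed under all 15 alternatives too, with log2 fold changes from 0.62 to 0.82. PLAUR lies on chromosome 19, from 43646095 to 43670547 on the minus strand.

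The balance between urokinase and its receptor was read as the ratio of their levels per length. The RPKM ratio of PLAU to PLAUR was 10.7, 11.9 and 10.5 in vector and 5.36, 4.55 and 6.09 in oeRNF112, a fold of 0.481 without overlap. An exact two-sided permutation test over the 6 samples gave p = 0.1 for this ratio, the smallest that 3 against 3 samples allow, and 0.15 after adjustment over the 6 ratios tested. Such ratios are of mRNA per length and say nothing of the amounts of protein.

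**Figure D1:**
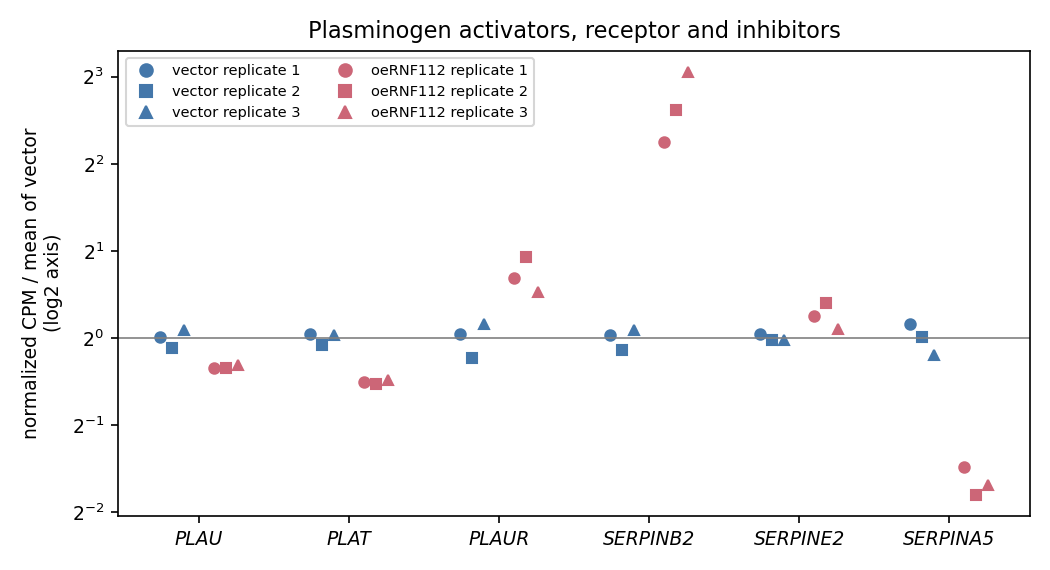
Plasminogen activators, their receptor and 3 serine protease inhibitors in each sample, as normalized CPM divided by the mean of the vector samples on a log2 axis; blue marks vector, red oeRNF112. PLAU and PLAT lie below 1 in oeRNF112, at folds of 0.792 and 0.705, PLAUR and SERPINB2 lie above 1, at 1.65 and 6.40, and SERPINA5 lies at 0.320.

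Among the partners of the activators, SERPINB2 rose and SERPINA5 fell. SERPINB2 went from 237, 212 and 240 counts to 1147, 1477 and 2054, a 6.40-fold rise (log2 fold change 2.68, standard error 0.194, edgeR adjusted p = 5.77e-05). SERPINA5, which encodes the protein C inhibitor, fell from 101, 92 and 77 counts to 34, 27 and 30 (log2 fold change -1.64, standard error 0.233, edgeR adjusted p = 0.00172). Both genes passed in every alternative that could be fitted. Of the 11 genes on the list of plasminogen partners, 10 were tested, 1 rose, 1 fell and 8 did not pass (9.97% and 8.14% of all tested genes rose and fell), with a median log2 fold change of 0.038. Those that did not pass included SERPINE2, which encodes protease nexin 1 (0.25, edgeR adjusted p = 0.111), and the plasminogen-binding annexin gene ANXA2 (-0.36, adjusted p = 0.0690). PLG, the gene of plasminogen itself, was not analysed here.

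MMP14 encodes the membrane-type metalloproteinase MT1-MMP and was the only well expressed metalloproteinase of the 4 chosen. It was at 265, 269 and 290 normalized CPM in vector and at 334, 300 and 296 in oeRNF112. The groups did not overlap, but the gap between vector replicate 3 and oeRNF112 replicate 3 was narrow. The log2 fold change was 0.17 (standard error 0.0872) and did not pass edgeR's test (adjusted p = 0.194). With limma on log2 RPKM the estimate was 0.26 to 0.27 and passed, at adjusted p-values from 0.0456 to 0.0470. RPKM values carry library totals, which in edgeR shift the median log2 fold change of all tested genes to 0.0962. With library totals, edgeR gave MMP14 a log2 fold change of 0.27, which did not pass (adjusted p = 0.0533). The part of library totals in the limma calls was not tested. MMP14 lies on chromosome 14, from 22836557 to 22849027 on the plus strand.

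MMP1 encodes interstitial collagenase, which cuts fibrillar collagen. Its counts were low, at 39, 26 and 100 in vector and 134, 157 and 152 in oeRNF112. The oeRNF112 samples lay close together and above all vector samples, among which replicate 3 held more than the sum of the other two. MMP1 rose 2.52-fold (log2 fold change 1.33, standard error 0.396, edgeR adjusted p = 0.0434). The call was lost without vector replicate 1 (adjusted p = 0.158) and without oeRNF112 replicates 1, 2 or 3 (0.0917, 0.0642 and 0.0890), while the estimate stayed above 0 in all 15 alternatives, from 0.80 to 2.11. Without vector replicate 3 the log2 fold change was 2.11. MMP1 lies on chromosome 11, from 102789920 to 102798160 on the minus strand, where WTAPP1 on the opposite strand shares 150 exonic bases with it. WTAPP1 counts were not analysed here. As the strand setting of the counting is not given, reads of MMP1 and WTAPP1 in the shared bases cannot be told apart.

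MMP9 encodes gelatinase B, which cuts basement membrane collagen. It had 20, 13 and 27 counts in vector and 262, 19 and 14 in oeRNF112. Only oeRNF112 replicate 1 was high, and the other oeRNF112 samples lay within the vector range. The log2 fold change of 2.21 (standard error 0.972) did not pass edgeR's test (adjusted p = 0.143). Without oeRNF112 replicate 1 it was -0.36 (adjusted p = 0.668), and without oeRNF112 replicate 2 it was 2.71 (adjusted p = 0.0483), so the sign of the estimate rested on oeRNF112 replicate 1. MMP9 lies on chromosome 20, from 46008908 to 46016561 on the plus strand, and the antisense gene SLC12A5-AS1 that overlaps it had at most 1 count.

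Myeloid cells are a rich source of MMP9, and leukocyte markers were read beside it. In oeRNF112 replicate 1, the macrophage receptor gene CSF1R had 15 counts against 0 to 4 in every other sample, and ITGAM had 11 against 2 to 7. A2M, which is on the list of other metalloproteinase inhibitors and not among the leukocyte markers, had 19 against 0 to 3. The pan-leukocyte gene PTPRC had 54, 37 and 40 counts in vector and 33, 24 and 26 in oeRNF112, MPO had at most 1, and CD14 was at 57 counts in oeRNF112 replicate 1 and 53 to 91 in the other samples. The summed level of the 6 measured leukocyte markers was 24.8 to 26.9 CPM in vector and 54.4 to 67.9 CPM in oeRNF112, nearly all of it CD68, a lysosomal gene that many cell types express. CD68 rose 2.31-fold (edgeR adjusted p = 3.12e-04). The part of these markers in the MMP9 count was not tested, and in bulk RNA more cells of a type and more RNA per cell cannot be told apart.

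MMP2, the gelatinase A gene, was at the floor, with 1, 0 and 3 counts in vector and 4, 3 and 1 in oeRNF112. It did not pass the filter on low counts, and no fold is given. It was the 1 gene of the 9 that was not tested.

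TIMP1 encodes an inhibitor of most secreted metalloproteinases. It was at 193, 170 and 226 normalized CPM in vector and at 241, 268 and 206 in oeRNF112. The groups overlapped by vector replicate 3 and oeRNF112 replicate 3, and the log2 fold change of 0.28 (standard error 0.127) did not pass edgeR's test (adjusted p = 0.155). TIMP1 passed in none of the 15 alternatives, with adjusted p-values from 0.0546 to 0.352. The gene lies on chromosome X, from 47582313 to 47586789 on the plus strand.

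TIMP2 both inhibits metalloproteinases and helps MMP14 to activate pro-MMP2. It was at 390, 420 and 389 normalized CPM in vector and at 440, 407 and 434 in oeRNF112, with overlap. Its log2 fold change was 0.096 (standard error 0.0827, edgeR adjusted p = 0.448), the smallest of the 8 tested genes, and passed in no alternative. TIMP2 lies on chromosome 17, from 78852977 to 78925387 on the minus strand.

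**Figure D2:**
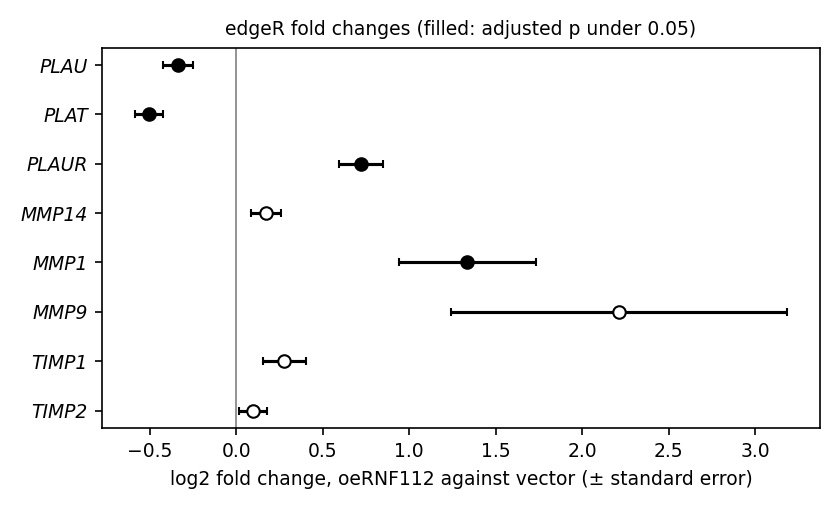
Log2 fold change of the 8 tested genes in oeRNF112 against vector with the standard error from edgeR; filled points have an adjusted p under 0.05. PLAUR (0.72) and MMP1 (1.33) lie right of 0 and PLAU (-0.34) and PLAT (-0.51) left of it, while MMP9 has the widest error, 0.972.

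Protease and inhibitor mRNA were also set side by side. The RPKM ratio of MMP1 to TIMP1 was 0.00476, 0.00357 and 0.0107 in vector and 0.0125, 0.0133 and 0.0163 in oeRNF112, a fold of 2.46 without overlap (exact permutation p = 0.1, adjusted 0.15). The ratio of MMP14 to TIMP2 was 0.671, 0.633 and 0.736 in vector and 0.749, 0.726 and 0.673 in oeRNF112, with overlap (exact permutation p = 0.4, adjusted 0.48). The ratio of MMP9 to TIMP1 overlapped as well (exact permutation p = 1), at 0.00151 to 0.00244 in vector and 0.0207, 0.00136 and 0.00126 in oeRNF112. Per length, MMP14 mRNA was thus 0.633 to 0.749 times the TIMP2 level in the 6 samples, and MMP1 mRNA at most 0.0163 times the TIMP1 level. The planned ratio of MMP2 to TIMP2 was left out because 1 MMP2 value is listed at 0.

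**Figure D3:**
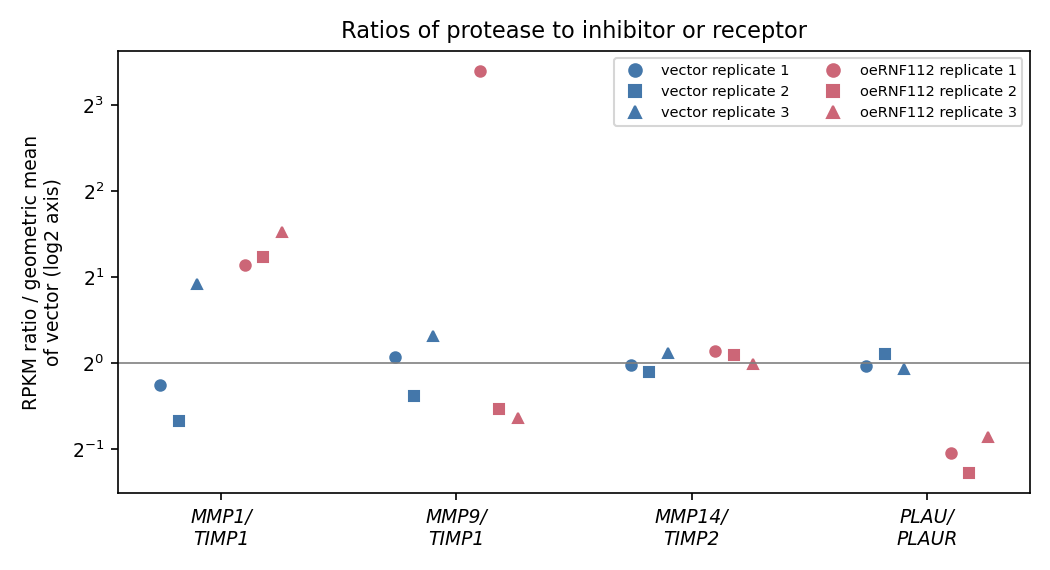
RPKM ratios of 4 gene pairs in each sample, divided by the geometric mean of the vector samples, on a log2 axis; blue marks vector, red oeRNF112. The ratio of PLAU to PLAUR lies below 1 in all 3 oeRNF112 samples, and MMP9 to TIMP1 is high in 1 of them.

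The remaining genes of the system were read from lists. All counts of genes that rose or fell stand against 9.97% higher and 8.14% lower over all tested genes, and no list was tested as a set. Of 19 other metalloproteinase genes, 7 were tested, 2 rose and none fell by edgeR's test, with a median log2 fold change of -0.10. MMP15, a membrane-type metalloproteinase gene, rose from 106, 130 and 161 counts to 267, 263 and 347 (log2 fold change 1.06, standard error 0.189, edgeR adjusted p = 0.00510). MMP13, the collagenase 3 gene, had 5, 6 and 3 counts in vector and 14, 26 and 19 in oeRNF112 (log2 fold change 1.97, edgeR adjusted p = 0.0180). It passed the filter on low counts only through its oeRNF112 samples, so its call is not independent of that filter. That call was lost without vector replicates 1 or 3 or oeRNF112 replicate 2, at adjusted p-values of 0.0681, 0.0579 and 0.0533. MMP13 and MMP1 both lie in a cluster of 9 metalloproteinase genes on chromosome 11 that spans 435227 bases, from 102520508 to 102955734. The other cluster genes with values were too low to test, with at most 18 counts of MMP3, 12 of MMP10 and 6 of MMP12 or MMP7 in any sample.

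Of the 4 other metalloproteinase inhibitors, 3 were tested and 1 passed. TIMP3, whose product binds the extracellular matrix, fell from 569, 649 and 595 counts to 253, 198 and 251, without overlap. TIMP3 fell by 63.4% (log2 fold change -1.45, standard error 0.129, edgeR adjusted p = 1.84e-04) and passed under all 15 alternatives. TIMP4 (0.31, edgeR adjusted p = 0.163) and RECK (0.18, edgeR adjusted p = 0.217) did not pass. The TIMP genes therefore differed in their values: only TIMP3 passed the test, while the estimates for TIMP1, TIMP2 and TIMP4 were above 0 and did not pass. A test of the differences between TIMP genes was not made.

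Of the 8 genes of metalloproteinase activation and docking, 7 were tested and 1 rose, LCN2, whose product forms a complex with MMP9. It had 139, 132 and 200 counts in vector and 263, 292 and 307 in oeRNF112 (log2 fold change 0.79, edgeR adjusted p = 0.0172), and the call was lost without vector replicate 1 (0.0767) and without oeRNF112 replicate 3 (0.0501). FURIN, the convertase that activates pro-MMP14, had a log2 fold change of 0.25 and did not pass (edgeR adjusted p = 0.0588). CD44, which docks MMP9 and MMP14 at the cell surface, was at -0.19 (edgeR adjusted p = 0.166).

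Of 28 ADAM and ADAMTS genes, 17 were tested, 2 rose and none fell, a share near the 9.97% of all tested genes that were higher. ADAM33 rose from 13, 10 and 20 counts to 59, 46 and 82 (log2 fold change 2.03, edgeR adjusted p = 0.00464), and ADAMTS7 from 209, 223 and 274 to 378, 321 and 479 (0.65, edgeR adjusted p = 0.0281). The ADAMTS7 call was lost without vector replicate 1 or oeRNF112 replicates 1 or 3, at adjusted p-values of 0.115, 0.0747 and 0.101. Of 20 other invasion proteases and inhibitors, 16 were tested and 5 rose, against the same 9.97%. These were the cathepsin genes CTSL (0.73, edgeR adjusted p = 0.00145), CTSV (0.39, adjusted p = 0.0300) and CTSS (0.48, adjusted p = 0.0396), the heparanase gene HPSE (0.91, adjusted p = 0.00881) and SPINT1 (0.71, adjusted p = 0.00210), which encodes an inhibitor of hepatocyte growth factor activator. The calls of CTSL, HPSE and SPINT1 stayed in all fits that left out a sample. CTSV was lost in 5 of the 6, all but the one without vector replicate 3 (adjusted p-values from 0.0624 to 0.0906 in the 5), and CTSS in 4 of the 6, those without vector replicates 2 or 3 or oeRNF112 replicates 1 or 2 (0.0507 to 0.135).

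For each of the 4 genes that passed, the gene with the most similar profile was found among 11558 genes, by the root mean square difference of centered log2 CPM over the 6 samples. PLAUR was closest to FSTL3, a gene for a secreted activin antagonist, at 0.0273 beside a PLAUR range of 1.15. PLAU was closest to TRAP1, a mitochondrial chaperone gene, at 0.0306 beside a range of 0.446, and PLAT to the antisense gene ZBED5-AS1 at 0.0349 beside a range of 0.569. MMP1 had no neighbor as near, with C1QL4 at 0.370 beside a range of 2.47. These are descriptions over 6 samples of 2 groups.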

How the data were processed

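RNA-seq of 6 T24 samples was analysed, 3 vector and 3 oeRNF112, grouped by the labels. The authors deposited unnormalized read counts per gene and RPKM values, one column per sample. The submitters' processing notes name Trimmomatic 0.36, featureCounts, Subread 1.5.1 and GRCh38; the aligner, annotation and strand setting of the counting are not given in the sources used here. Dividing each count by its library total and by 1 length per gene gave back the RPKM values of the 9 genes within a relative gap of 1.5e-06, so the tables are not independent measurements. RPKM assumes equal RNA composition between libraries, and TMM does not.

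Counts were tested with edgeR 4.0.16 in R 4.3.3: filterByExpr, TMM factors (0.957 to 0.988 in vector, 1.01 to 1.05 in oeRNF112), a quasi-likelihood test and Benjamini-Hochberg adjustment over all 14467 tested genes, with a threshold of 0.05. The study's methods name no per-gene test for these data. Ratios of RPKM were compared on the log2 scale by an exact permutation test. No pair of replicates within a group were copies, with chi-square per degree of freedom of at least 16.74. The scripts were tested on simulated data.

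Alternatives were DESeq2 1.42.0, its size factors, library totals, no filter, at least 10 counts in every sample, a replicate block, leaving out each sample, and limma 3.58.1 on log2(RPKM + 1), log2(RPKM + 0.1) or only where the mean RPKM was 1 or more. For ratios, medians and a pseudocount of 0.1 were used.

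The members and lists were chosen with earlier results of these data known. Named genes are the 9 genes, RNF112, at most 5 genes per list with the smallest p among those past the threshold, and the closest profile of each called member with a mean count of at least 100. Genes named outside this rule (C10orf55, WTAPP1, SLC12A5-AS1, SERPINE2, ANXA2, FURIN, CD44, TIMP4, RECK, A2M, the low metalloproteinases and the markers) were chosen after their values were seen. Promoter windows came from RefSeq (GRCh38.p14) and were found for 4 of the 9 genes and for 10 of the 13 named list genes. Gene positions came from GENCODE 29. Results of 1 further gene, and 2 of the 6 tested ratios, are not reported here.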

Additional observations from a re-analysis of the deposited data

How the results depend on the processing

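PLAUR and PLAT stayed past the threshold in all 15 alternatives, and TIMP1 and TIMP2 stayed short of it in all 15. Of the 9 genes, 2 to 4 passed when a sample was left out, with 2 without vector replicate 1, oeRNF112 replicate 1 or oeRNF112 replicate 3. Of all tested genes, 7.18%, 8.59% and 9.84% passed in these 3 fits, and 23% in the fit with 4, without vector replicate 2. The fits without vector replicate 3 or oeRNF112 replicate 2, with 3 of the 9, had 13.1% and 15.9%. Counts of list genes with a sample left out, given below, stand against these shares. With each sample left out, the log2 fold change ranged from 0.987 to 2.11 for MMP1, from -0.361 to 2.73 for MMP9 (-0.361 without oeRNF112 replicate 1, past the threshold at 2.71 without oeRNF112 replicate 2) and from -0.393 to -0.284 for PLAU. PLAU also missed the threshold with library totals (-0.241) and with the 3 limma fits on RPKM (-0.239, -0.240 and -0.239), in which MMP14 passed (0.263, 0.266 and 0.263). DESeq2 gave no adjusted p for MMP9. The log2 difference of the ratio of MMP9 to TIMP1 turned to -0.599 with group medians and ranged from -0.584 (without oeRNF112 replicate 1) to 1.43 with each sample left out. The labels do not say that the replicate numbers pair the samples. Same-numbered samples had correlations of -0.116, -0.363 and -0.296 between their deviations from the group means. Differently numbered samples were not compared, so these values cannot settle whether the samples were paired. With the replicate block in edgeR, 876 genes passed, 618 higher and 258 lower, and PLAU had -0.334 (adjusted p = 0.180). In that fit, 3 of the 9 genes, 1 other MMP gene, 1 ADAM or ADAMTS gene and 3 other invasion genes passed. These stand against 876 of all 14467 genes tested in it. Without each sample in turn, the genes changed numbered 1061 to 3387, those higher 702 to 1841 and those lower 359 to 1546. Genes lower numbered 659 with library totals and 669, 682 and 603 with limma (pseudocount 1, pseudocount 0.1 and mean RPKM of at least 1), and library totals raised the share of calls that were higher from 55.04% to 75.4%. On the lists, other MMPs numbered 1 to 2 with a sample left out, 1 with at least 10 counts and 1 with a mean RPKM of at least 1. Other inhibitors numbered 2 with limma at pseudocount 0.1 and 2 at a mean RPKM of at least 1. With a sample left out, plasminogen partners numbered 2 to 4 (4 without vector replicate 2 or oeRNF112 replicate 2), activation and docking genes 0 to 1, ADAM and ADAMTS genes 1 to 4, and other invasion genes 3 to 4. Activation and docking genes numbered 2 with DESeq2, library totals, no filter and the 3 limma fits, and ADAM and ADAMTS genes numbered 4 with DESeq2 and with library totals. Over all tested genes, 3243 of 14467 passed with DESeq2 and 2679 of 14467 with library totals. Without a filter 2587 of 23152 passed, and 2425 of 13451 with at least 10 counts. With limma, 2532 of 14467 passed at pseudocount 1, 2601 of 14467 at 0.1 and 2042 of 11128 at a mean RPKM of at least 1. Among the other named genes, 17 fits with a sample left out and 4 other fits lost a call, and none turned its direction. The cause of these shifts was not tested, beyond the smaller number of samples where one was left out. Low counts limit MMP1, MMP2, MMP9 and MMP13.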

Other observations

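MMP9 was 1 of 3 genes, of 14467 tested, that reached at least 100 counts in a single library and a normalized CPM at least 8 times that of every other library, a rule chosen after its values were seen. In oeRNF112 replicate 1 its level was 9.03 times that of the next library. The other 2 genes, LOC107987206 with 2339 counts and LOC105378179 with 3183 counts, stood out in oeRNF112 replicate 2 instead, where MMP9 had 19 counts.

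Scatter among replicates also differed by member. Within vector, the coefficient of variation of RPKM was 3.25% for PLAT, 5.78% for PLAU, 11.8% for PLAUR and 12.9% for TIMP1. It was 72.7% for MMP1, 35.4% for MMP9 and 115% for MMP2, and low counts limit the values of these genes. In oeRNF112 it was 7.57% for MMP1 and 144% for MMP9.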
